A study of Mus musculus with 55 samples.

Results

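Examined were 10 glutathione S-transferase genes of the mouse liver: the mu class Gstm1 to Gstm7, the alpha class Gsta3 and Gsta4, and the pi class Gstp1. They were taken by symbol, 10 of the 34490 symbols that both sequencing batches share, and were chosen by their library-scaled counts (CPM, a count relative to its library total) in each genotype and condition of these same libraries. The CPM of the 10 and the contrasts of genotype and damage are therefore given as a description, and tests are kept for sex and for genes outside the list. CPM here is scaled by TMM factors, which set the bulk of genes level between libraries. Bulk RNA-seq counts were used for 53 libraries of adult C57BL/6 liver, 23 of batch 1 and 30 of batch 2 (called first and second below), with 11721687 to 38692089 counts per library (median 22982428). R&Zdel livers carry floxed Rnf43 and Znrf3 alleles whose ring-domain exons were deleted with AAV8-TBG-Cre, or with tamoxifen through Alb1-CreERT2, the TBG and Alb1 promoters being hepatocyte promoters. R&Zflox livers carry the same floxed alleles and received AAV8-null virus or the sunflower oil vehicle by the study's methods. Undamaged livers were labelled 1 month (4 R&Zdel and 4 R&Zflox), 3 months (2 and 5) and 7 months (6 and 5). By the study's methods these months count from the deletion, induced in adult mice, and are not the age. Livers after partial hepatectomy (PHx, removal of part of the liver) were taken at 7 and 21 days, with 3 R&Zdel and 3 R&Zflox at each time. Livers after repeated doses of the hepatotoxin carbon tetrachloride (CCl4) were taken 4 days (2 and 2), 50 days (2 and 1) and 170 days (2 and 2) after the last dose, and all of these were males of the first batch. The study's sample list names the virus for every 1-month and PHx liver and for the 3-month livers of the second batch. It names tamoxifen for the rest except 1 R&Zdel 7-month library with no agent listed. At 3 months the agent thus follows the batch. Between the 1-month or PHx livers and the 7-month or CCl4 livers, the agent and the condition cannot be told apart. The list names tamoxifen for R&Zflox livers too, where the methods name the oil. The labels mark the R&Zflox livers of the CCl4 series as damaged, whereas a sentence of the study's methods gives unrecombined littermates the oil vehicle alone.

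Glutathione S-transferases join the tripeptide glutathione to electrophiles such as drug metabolites, lipid peroxidation products and toxins, and the conjugates then leave the hepatocyte through ATP-driven pumps. The enzymes work as dimers of subunits of one class, and the mu, alpha and pi classes hold most of the cytosolic activity of the liver. RNF43 and ZNRF3 are membrane E3 ubiquitin ligases that remove Frizzled receptors from the cell surface and so dampen WNT signalling, which in the liver sets the pericentral pattern of many drug-metabolising enzymes. In mice the pi class is known for much higher levels in male than in female liver.

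The 7 mu genes lie side by side on chromosome 3 of mm10. From Gstm5 on the plus strand (chr3:107895854-107898685), the minus-strand genes follow in the order Gstm7, Gstm6, Gstm3 (chr3:107963696-107969174), Gstm2 (chr3:107981702-107986420), Gstm1 (chr3:108012250-108017973) and Gstm4 (chr3:108030571-108045179). Gsta3 is on chromosome 1 (chr1:21240565-21265575), Gsta4 on chromosome 9 (chr9:78191966-78209349), both on the plus strand, and Gstp1 on the minus strand of chromosome 19 (chr19:4035411-4037912). The 250 bases before the annotated start are shown for Gstm3, Gstm2 and Gstm1, of which the first 2 had the largest contrasts between genotypes and the third is their most abundant neighbour, and for Gstp1, which differed most between the sexes. The sequences are RefSeq's for GRCm38.p6, each read 5′ to 3′ on the gene's own strand (minus), with capitals for a searched motif.
Gstm3, chr3:107969175-107969424: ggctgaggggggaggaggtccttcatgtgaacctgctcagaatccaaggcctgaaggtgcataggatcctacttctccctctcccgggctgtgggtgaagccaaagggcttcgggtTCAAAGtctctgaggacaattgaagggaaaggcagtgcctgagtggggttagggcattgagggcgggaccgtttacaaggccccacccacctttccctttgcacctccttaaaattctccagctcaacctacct
Gstm2, chr3:107986421-107986670: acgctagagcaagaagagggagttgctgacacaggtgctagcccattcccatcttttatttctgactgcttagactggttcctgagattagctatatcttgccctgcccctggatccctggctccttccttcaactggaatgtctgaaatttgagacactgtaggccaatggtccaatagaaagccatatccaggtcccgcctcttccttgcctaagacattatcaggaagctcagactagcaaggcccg
Gstm1, chr3:108017974-108018223: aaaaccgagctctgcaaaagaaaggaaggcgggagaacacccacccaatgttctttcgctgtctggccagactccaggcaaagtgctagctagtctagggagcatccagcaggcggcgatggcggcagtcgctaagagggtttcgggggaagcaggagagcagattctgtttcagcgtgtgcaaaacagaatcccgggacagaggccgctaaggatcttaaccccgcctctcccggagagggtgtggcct
Gstp1, chr19:4037913-4038162: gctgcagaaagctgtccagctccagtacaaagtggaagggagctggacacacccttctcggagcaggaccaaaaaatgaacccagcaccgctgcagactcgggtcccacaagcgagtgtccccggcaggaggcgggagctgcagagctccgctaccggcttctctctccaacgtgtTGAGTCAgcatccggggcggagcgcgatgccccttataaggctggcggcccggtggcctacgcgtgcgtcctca

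Motifs of 4 kinds were searched on both strands of the RefSeq windows, here the 250 bases before each annotated start. They were the TCF core CTTTGA, the antioxidant response element TGACNNNGC, AP-1 TGANTCA and STAT5 TTCNNNGAA. Windows were found for 9 of the 10 genes, with none for Gsta4. The TCF core is held by 13.8% of all 32851 windows and by 1 of the 9 genes, Gstm3, on the opposite strand and 134 bases before its start. The antioxidant response element is in 10.2% of windows and in Gsta3, Gstm5 and Gstm7. AP-1 is in 6.75% of windows and in Gstm5 and Gstp1 (74 bases before the start), and STAT5 is in 7.02% and in Gstm6. Gstm2 and Gstm1 hold none of the 4 in these windows. These are matches of letters and carry no measurement of a factor.

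Several of the genes are near copies, which touches how reads were divided among them. With 50-base words, 67.5% of the Gstp1 transcript sequence also occurs in Gstp2, 15.3% of Gstm3 and 12.7% of Gstm1 occur in other genes (mostly in each other), and 4.98% of Gstm2 and 3.57% of Gstm6 are shared. Gstm4, Gstm5, Gsta3 and Gsta4 share none. The search covered protein-coding transcripts, so sharing with pseudogenes was not measured. The count of Gstp1 is thus uncertain against its paralog, and Gstm1 and Gstm3 are uncertain to a smaller degree.

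The targeted genes were checked first. Their counts cover the whole gene while only the ring-domain exons were floxed, and they were higher, not lower, in R&Zdel livers. At 1 month Rnf43 was at 41.9 to 49.8 CPM in R&Zdel against 3.39 to 17.9 in R&Zflox, and Znrf3 at 38.8 to 102 against 9.18 to 29.9, so neither shows a loss of RNA. The sum of 5 hepatocyte markers (all 5 found) was lower in R&Zdel at 1 month, at 56693 to 80585 against 113692 to 131981 CPM. At 7 months the ranges overlapped, at 57686 to 127416 (median 71609) against 98099 to 127393 (median 122297). Pancreas markers stayed at or below 65.8. Further, 4 libraries whose labels contradict each other were kept out of all groups. Another 3 have titles that name another time point or condition and were grouped by their genotype, damage and time labels. They are 1 of the 2 R&Zdel livers at 3 months and 1 of the 5 R&Zflox livers at 7 months, which are also the 2 females of the first batch, and the R&Zdel 7-month library of unlisted sex. Calls of members and listed genes that changed without the first 2 are said beside the result, an alternative chosen after seeing the data.

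Levels between genes were compared per length, as TMM-scaled CPM per kilobase of exon, over the undamaged second batch. The means pool both sexes, 2 females in each genotype, and the place of Gstp1 differs by sex. In R&Zflox livers (n = 10) the order was led by Gstp1 at 3443 ± 2519 (SD), Gstm1 at 1532 ± 163 and Gsta3 at 720 ± 135. The other 7 genes lay far lower, from Gsta4 at 129 to Gstm5 at 17.03, and the means of Gsta4, Gstm6, Gstm2, Gstm7 and Gstm3 were within the spread of their neighbours. In R&Zdel livers (n = 8) Gstm1 was first at 2898 ± 396, above Gstp1 at 1907 and Gsta3 at 1018. Gstm2 (411 ± 121), Gstm3 (338 ± 137) and Gstm6 (266 ± 48.8) came next, in places 4 to 6, and their ranges overlapped. Among males alone Gstp1 was at 4155 ± 2293 (SD, n = 8) per kilobase in R&Zflox, above Gstm1 at 1530 ± 163, and at 2353 ± 778 (n = 6) in R&Zdel, below Gstm1 at 2918 ± 435. In the 2 females of each genotype Gstm1 was above Gstp1 in both, at 1540 against 596 in R&Zflox and at 2838 against 569 in R&Zdel. The 10 genes together took 1.02% ± 0.166 (SD, n = 4) of all raw counts in R&Zdel and 0.641% ± 0.251 (n = 4) in R&Zflox at 1 month. The genotypes overlapped across sexes. The females were at 0.851% and 0.907% in R&Zdel and at 0.389% and 0.469% in R&Zflox. The males were at 1.19% and 1.13% against 0.907% and 0.798%.

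**Figure D1:**
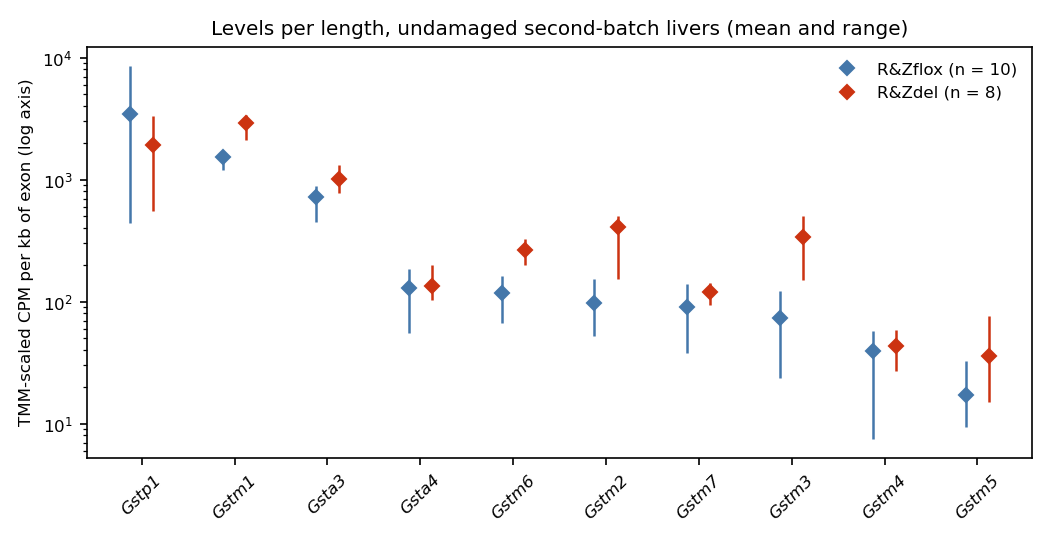
Mean TMM-scaled CPM per kilobase (log axis) of each gene in the undamaged second batch, with bars for the range over R&Zflox (n = 10) and R&Zdel (n = 8) libraries. Gstp1, Gstm1 and Gsta3 stand above the other 7 genes in both genotypes, and Gstm2 and Gstm3 move from among the lower genes to places 4 and 5. The means pool 2 females with 8 R&Zflox or 6 R&Zdel males, and the wide bars of Gstp1 span both sexes.

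Gstm3 and Gstm2, mu-class subunits of conjugation, were the members furthest apart between genotypes in undamaged liver. Each was several-fold higher in R&Zdel at all 3 time points. The groups did not overlap at any of them. The fits left out the R&Zdel 7-month library of unlisted sex, which is among the 6 whose levels are given.

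At 1 month Gstm3 was at 538, 610, 549 and 501.5 TMM-scaled CPM in the R&Zdel livers and at 80.8, 91.6, 148 and 107 in the R&Zflox livers. At 3 months it was at 351 and 365 against 50.8, 62.0, 76.8, 28.3 and 65.9. At 7 months the 6 R&Zdel livers ran from 182 to 567 (median 311), the highest being the library of unlisted sex, and the 5 R&Zflox livers were at 69.9, 81.2, 93.3, 52.5 and 143. The lowest R&Zdel liver at 7 months thus lay close above the highest R&Zflox liver, and the gap in CPM was widest at 1 month. The log2 fold change was 2.38 ± 0.31 (SE; 5.20-fold) at 1 month, 2.73 ± 0.34 (6.65-fold) at 3 months and 1.61 ± 0.27 (3.06-fold) at 7 months.

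Gstm2 followed the same order of groups. At 1 month it was at 521, 523, 508 and 498 CPM in R&Zdel and at 148, 159, 78.1 and 101 in R&Zflox, the first pair of each set being females. At 3 months the values were 359 and 349 against 49.1, 82.0, 86.7, 91.5 and 53.7. At 7 months R&Zdel ran from 158 to 456 (median 418), with R&Zflox at 78.6, 90.4, 131, 88.2 and 76.4. One R&Zdel liver at 7 months, at 158, lay far below the others, which were all above 390. The log2 fold change stayed near 2 at each time: 2.10 ± 0.30, 2.14 ± 0.33 and 2.09 ± 0.27, or 4.28-, 4.41- and 4.25-fold.

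**Figure D2:**
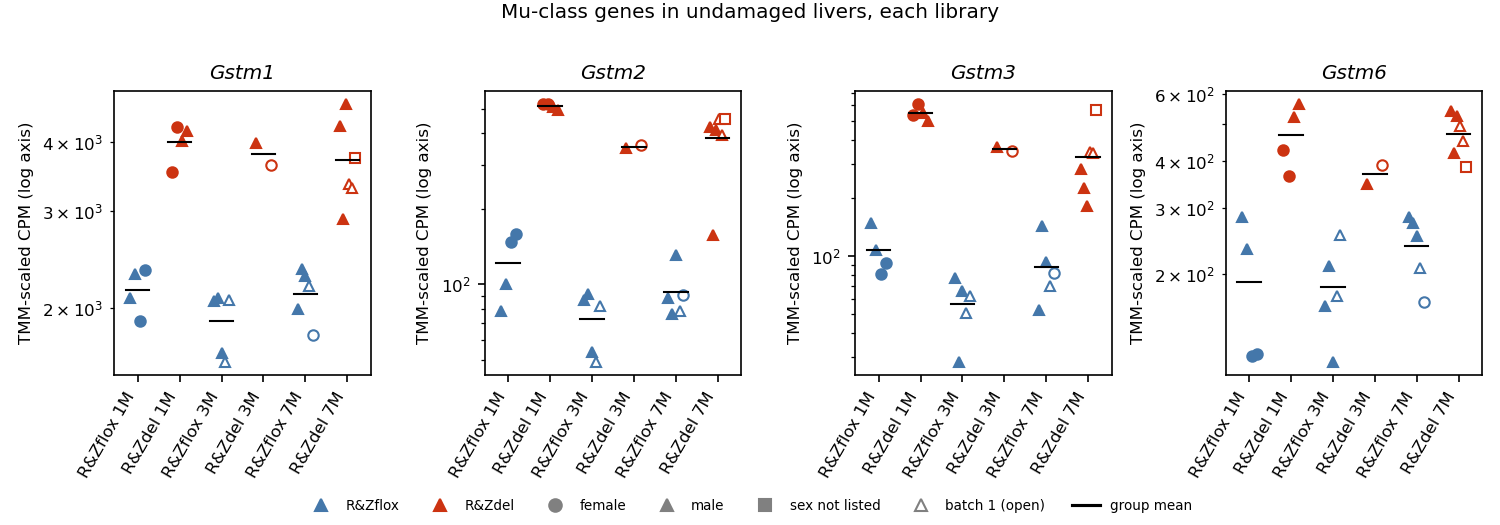
TMM-scaled CPM (log axis) of Gstm1, Gstm2, Gstm3 and Gstm6 in each undamaged library by time point and genotype, circles for females, triangles for males, a square for the library of unlisted sex, open symbols for the first batch and lines for group means. All R&Zdel points lie above all R&Zflox points of the same time, with the closest approach in Gstm2 at 7 months (158 against 131).

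Gstm1, the most abundant mu gene, and Gstm6 were raised less in fold but also without overlap. At 1 month Gstm1 was at 3531, 4257, 4008 and 4185 CPM in R&Zdel and at 1890, 2337, 2083 and 2300 in R&Zflox. At 3 months it was at 3635 and 3982 against 1594, 2064, 2056, 2083 and 1653, and at 7 months the R&Zdel livers ran from 2899 to 4683 (median 3540) against 2187, 1781, 2283, 1993 and 2347. No R&Zdel liver fell to the R&Zflox range of its time point. Its log2 fold changes were 0.88 ± 0.17 (1.84-fold), 1.05 ± 0.20 (2.07-fold) and 0.82 ± 0.15 (1.77-fold). Gstm6 was at 427, 363, 523 and 565 CPM in R&Zdel and at 121, 122, 284 and 233 in R&Zflox at 1 month, the females first in each set. At 3 months it was at 390 and 348 against 175, 255, 165, 211 and 117, and at 7 months 386 to 542 (median 473) against 208, 168, 252, 283 and 273. Its log2 fold changes were 1.36 ± 0.22, 1.327 ± 0.27 and 0.96 ± 0.20.

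The remaining mu genes were less uniform. Gstm5, the mu gene with the lowest level, was at 23.3 to 35.1 CPM in R&Zdel and 12.5 to 20.3 in R&Zflox at 1 month, without overlap, with log2 fold changes of 0.91 ± 0.44, 0.59 ± 0.52 and 1.13 ± 0.41 over the 3 times. At 7 months one R&Zdel liver stood at 69.3 and the others at 13.6 to 33.8, so the groups overlapped. Gstm4 differed little at 1 month (0.04 ± 0.34) and 7 months (−0.18 ± 0.31), and at 3 months its value was 0.90 ± 0.41 with R&Zdel at 114 and 146 CPM against 16.7 to 117. Gstm7 had log2 fold changes of 0.25 ± 0.25, 0.53 ± 0.30 and 0.30 ± 0.22. Gstm4 and Gstm7 overlapped between genotypes at every undamaged time point, so the 7 neighbours were not alike.

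Among the alpha genes, Gsta3 was higher by less than 2-fold and Gsta4, known for conjugating the lipid peroxidation product 4-hydroxynonenal, was level. Gsta3 was at 1429, 1259, 2140 and 1954 CPM in R&Zdel and at 933, 985, 1340 and 1452 in R&Zflox at 1 month, females first in each set. Within each sex the R&Zdel livers were higher, and across sexes the groups overlapped. The log2 fold changes of Gsta3 were 0.51 ± 0.18, 0.63 ± 0.21 and 0.20 ± 0.16, and those of Gsta4 were −0.07 ± 0.25, −0.19 ± 0.31 and 0.21 ± 0.23. Gstp1 had negative values at each time, −0.45 ± 0.38, −0.33 ± 0.51 and −0.67 ± 0.35, and its females and males were far apart in both genotypes.

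At an adjusted p under 0.1 and over 2-fold (edgeR quasi-likelihood, adjusted over all 12848 genes), 3 of the 10 were called at 1 month (Gstm3, Gstm2, Gstm6), 4 at 3 months (those and Gstm1) and 2 at 7 months (Gstm2, Gstm3), all higher in R&Zdel. Of all genes, 0.436%, 0.226% and 0.451% were called in either direction. Groups did not overlap, with R&Zdel higher, for 5, 5 and 4 members, beside 2.34%, 6.16% and 0.848% of all genes. With R&Zdel lower, this held for 0, 1 (Gstp1 at 3 months) and 0 members, beside 2.33%, 3.34% and 0.841%. For Gstp1 at 3 months the R&Zdel livers were a female at 668 CPM and a male at 1348. The R&Zflox livers there were all males, at 1505 to 6390, so sex was not balanced. The median log2 fold change of the 10 was 0.69, 0.77 and 0.56, and that of all genes 0.01, −0.09 and −0.02. Since the members were proposed with these contrasts known, nothing is read from the counts. Without the sole first-batch R&Zdel library at 3 months, whose title names 7 months, the calls of Gstm1 and Gstm6 were lost, without the sole second-batch one those of Gstm1 and Gstm2, and without replicate 5 of R&Zflox in the second batch that of Gstm1. With males alone 1 member was called at 1 month, since Gstm3 and Gstm6 lost their calls with 2 livers a group.

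Sex was tested because it took no part in choosing the genes. Gstp1 was far lower in females. In the 6 undamaged female livers it ran from 329 to 668 CPM with a median of 423, and in the 19 males from 806 to 6390 with a median of 1959, so the sexes did not overlap. The log2 difference, female minus male, was −2.60 ± 0.34 (adjusted p = 2.3e-05, edgeR quasi-likelihood over 12848 genes), and 0.918% of genes passed the same threshold in either direction. Within the first batch the 2 females were at 380 and 668 and the 5 males at 806 to 3485, and within the second the 4 females were at 329 to 558 and the 14 males at 1135 to 6390. Over all alternatives run, left-out libraries among them, the difference lay between −2.87 and −2.43. The lower end is the value without the 2 first-batch females, whose titles name other groups (−2.87 ± 0.39, adjusted p = 8.8e-05).

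Gsta3 was also lower in females, by 0.65 ± 0.15 on the log2 scale (adjusted p = 0.021), which is under 2-fold. It was at 933 to 1474 CPM in females (median 1267) and 734 to 2186 in males (median 1494), with wide overlap. Without the 2 first-batch females its adjusted p by the same test was 0.23 (−0.58 ± 0.18). Gsta3 thus passed an adjusted p under 0.1 only with them, and was not called in either fit. Gstm6 had a log2 difference of −0.65 ± 0.18, but its adjusted p of 0.12 missed the threshold. The other 7 members had log2 differences between −0.24 (Gstm3) and 0.26 (Gstm2), none called (adjusted p = 1 for each). The genes of the conjugation pathway outside the list were tested the same way: the microsomal transferase Mgst3 was higher in females (1.331 ± 0.21, adjusted p = 0.00039) and the efflux pump Abcg2 lower (−1.72 ± 0.40, adjusted p = 0.03). Without the same 2 females Mgst3 was at 1.44 ± 0.27 (adjusted p = 0.0038), and Abcg2 at −1.88 ± 0.49 narrowly missed the threshold (adjusted p = 0.105).

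**Figure D3:**
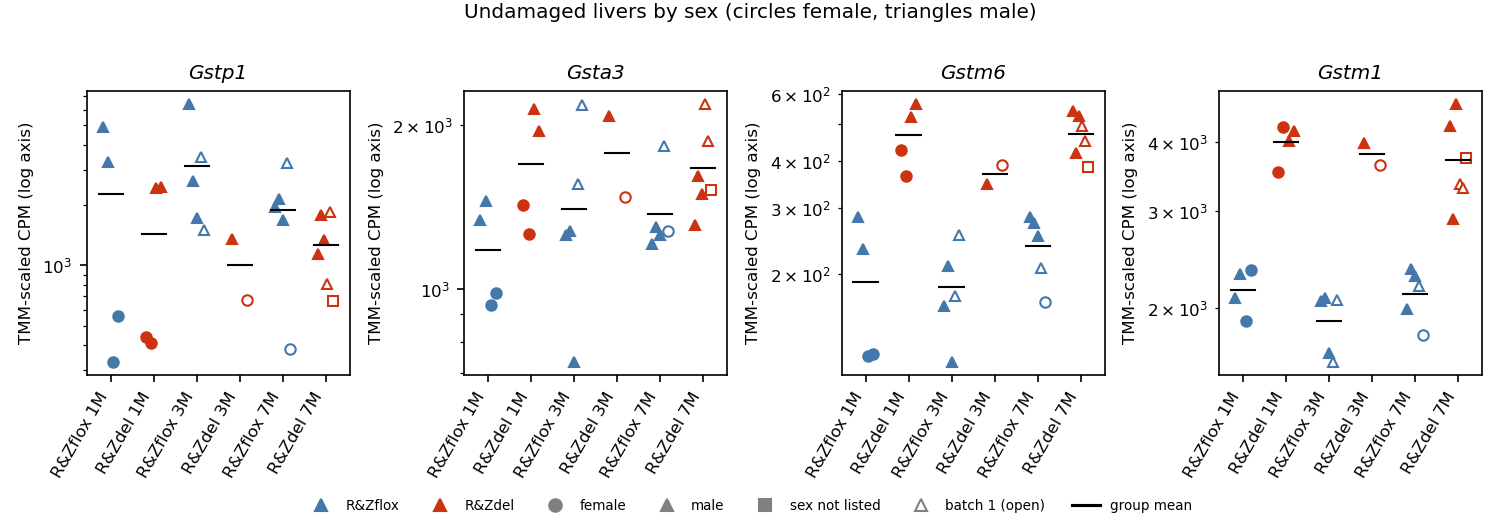
TMM-scaled CPM (log axis) of Gstp1, Gsta3, Gstm6 and Gstm1 in undamaged livers by sex and genotype, 1 point per library, open symbols for the first batch. Gstp1 in the 6 females (329 to 668) lies below all 19 males (806 to 6390), whereas Gstm1 separates by genotype in both sexes.

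Whether the contrast of genotypes differed by sex could be tested at 1 month alone, with 2 females and 2 males of each genotype. Gstm4 was at 123 and 130 CPM in R&Zdel females and 77.2 and 95.9 in R&Zflox females, but at 95.8 and 75.6 in R&Zdel males and 127 and 115 in R&Zflox males. The order of the genotypes was thus opposite in the sexes, yet the difference of the contrasts (1.03 ± 0.36 on the log2 scale) had an adjusted p of 0.61 by edgeR's quasi-likelihood test. Gstm2 (−0.74 ± 0.27, adjusted p = 0.61), Gstm3 (0.68 ± 0.30, adjusted p = 0.68), Gstm6 (0.61 ± 0.27, adjusted p = 0.67) and Gstp1 (0.66 ± 0.35, adjusted p = 0.76) did not pass either. Of all 11292 genes 0.00886% passed (1 gene), while DESeq2 called 237 genes and 0 members.

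After partial hepatectomy the same 4 mu genes stood higher in R&Zdel livers at both times. All livers were of the second batch, and all but 1 were male. Gstm3 was at 446, 560 and 531 CPM in R&Zdel at 7 days against 180, 189 and 164 in R&Zflox, and at 21 days at 407, 439 and 532 (the last a female) against 62.8, 80.8 and 106. Gstm2 was at 349, 441 and 478 against 109, 110 and 147 at 7 days, and at 462, 407 and 430 against 152, 103 and 92.1 at 21 days. No R&Zdel value of either gene reached down to an R&Zflox value. The log2 fold change of Gstm3 was 1.54 ± 0.22 at 7 days and 2.49 ± 0.24 at 21 days, and that of Gstm2 was 1.80 ± 0.24 and 1.81 ± 0.24.

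Gstm1 was at 4087, 4923 and 3889 CPM against 2828, 2314 and 2971 at 7 days, and at 3784, 4192 and 3220 against 2368, 1901 and 2211 at 21 days. Gstm6 was at 396, 355 and 520 against 200, 174 and 167, then at 483, 478 and 358 against 294, 233 and 246. Both remained apart between genotypes, with log2 fold changes of 0.68 ± 0.15 and 0.83 ± 0.16 for Gstm1 and 1.24 ± 0.20 and 0.99 ± 0.20 for Gstm6. Gsta3 was at 1924, 1707 and 1709 CPM against 1028, 1035 and 873 at 7 days, a log2 fold change of 0.88 ± 0.14, the largest for this gene in any of the 8 deletion contrasts. Gstp1 at 21 days was at 1670, 1961 and 556 (a female) against 4746, 2907 and 4311, and at 7 days 1 R&Zflox male at 762 lay below all 3 R&Zdel livers. Gstm5 at 21 days had a log2 fold change of −1.12 ± 0.67, with 1 R&Zdel liver at 2.2 CPM and the others at 18.3 and 22.6.

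The study called hepatectomy contrasts at an unadjusted p under 0.05 and over 2-fold. By that rule 3 members were called at 7 days (Gstm2, Gstm3, Gstm6) and 2 at 21 days (Gstm3, Gstm2), all higher, beside 3.98% and 6.55% of 12773 genes. At an adjusted p under 0.1 and over 2-fold, the same 3 and 2 members were called, beside 0.274% and 0.329% of genes. Groups did not overlap with R&Zdel higher for 6 and 5 members (5.57% and 5.36% of genes), and with R&Zdel lower for 0 and 1 (5.63% and 5.4%). The medians of the 10 were 0.79 and 0.36 and those of all genes −0.01. Without any 1 library 3 to 4 members were called at 7 days and 2 to 4 at 21 days.

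At 4 days after the last CCl4 dose the members diverged. Gstm3 and Gstm2 were higher in R&Zdel, Gstm4, Gstm7, Gstp1 and Gsta3 were lower, and Gstm1 and Gstm6, higher without overlap in every undamaged and hepatectomy group, had log2 fold changes near or below 0. Gstm3 was at 851 and 1034 CPM in R&Zdel, above all its values in undamaged livers, against 279 and 325 in R&Zflox (1.58 ± 0.40 on the log2 scale). Gstm2 was at 309 and 278 against 98.8 and 91.9 (1.56 ± 0.21). Gstm4 was at 63.2 and 74.7 against 142 and 141 (−1.10 ± 0.28), and Gstm7 at 74.1 and 73.1 against 134 and 143 (−0.97 ± 0.22). These 4 neighbouring genes thus took opposite directions, with the 2 livers of each group close together. Gstm6 was at 137 and 144 against 172 and 162 (−0.32 ± 0.29), and Gstm1 at 2768 and 2571 against 2358 and 2479 (0.08 ± 0.37).

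Gsta3 at this time was at 1199 and 902 CPM in R&Zdel against 1638 and 1517 in R&Zflox (−0.65 ± 0.32). Gsta4 was at 201 and 153 against 96.2 and 99.3 (0.79 ± 0.40). Neither alpha gene was called. Gstp1 was at 2239 and 1705 against 5157 and 2673 (−1.05 ± 0.46), and Gstm5 at 50.2 and 53.7 against 35.7 and 30.4 (0.59 ± 0.16). At an adjusted p under 0.1 and over 2-fold, 2 members were called higher (Gstm3, Gstm2) and 1 lower (Gstm4), beside 10% and 4.91% of 11358 genes. Every member was without overlap, 5 higher and 5 lower, as were 40.5% and 28.2% of genes, so a lack of overlap says little with 2 livers a group. The median of the 10 was −0.12 and that of all genes 0.06.

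Marker sums differed between these livers. The sum of 5 cholangiocyte (bile duct cell) markers was at 2989 to 4823 CPM in R&Zdel and 95.5 to 170 in R&Zflox, and the hepatocyte sum at 57074 to 77391 against 107516 to 108968, with all 5 markers of each list found. In bulk RNA fewer cells of a type and less RNA per cell cannot be told apart, and the part of these markers in the values of the members was not tested. The scaling matters here too: TMM factors were at 1.22 to 1.34 in R&Zdel, and scaling by library totals alone moved the median of all genes by 0.51 on the log2 scale, with Gstm6 going from −0.32 to 0.20, Gstm1 from 0.08 to 0.59, Gsta3 from −0.65 to −0.15 and Gstm4 from −1.10 to −0.58. The call of Gstm4 was lost with that scaling, and Gsta4 and Gstm5 were called higher. Leaving out either R&Zflox library or the second R&Zdel library ended the call of Gstm3, and leaving out the first library of either genotype ended that of Gstm4.

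At 50 and 170 days Gstm3 and Gstm2 were again several-fold higher in R&Zdel. Gstm3 was at 514 and 412 CPM in R&Zdel against 101 in the single R&Zflox library at 50 days (2.12 ± 0.54), and at 406 and 448 against 36.3 and 101 at 170 days (2.60 ± 0.42). Gstm2 was at 351 and 307 against 89.4 (1.81 ± 0.27), then at 342 and 471 against 85.4 and 89.7 (2.18 ± 0.21). Gstm1 was at 4308 and 3022 against 1972 (0.83 ± 0.47), then at 4000 and 3905 against 1095 and 2500 (1.10 ± 0.38). Gstm1 and Gstm6 were thus again higher in R&Zdel, and at 170 days 1 R&Zflox liver lay well below the other. Gstm6 was at 438 and 369 against 197 at 50 days and at 422 and 538 against 119.5 and 230 at 170 days (1.42 ± 0.30). Gstm4, lower in R&Zdel at 4 days, was at 198 and 156 against 64.0 and 119 at 170 days (0.92 ± 0.27).

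Gsta3 at 50 days was at 1484 and 1408 CPM against 1654 (−0.26 ± 0.39). Gstp1 at 50 days was at 3240 and 1215 CPM against 2246, and at 170 days at 1401 and 1487 against 1911 and 1992 (−0.47 ± 0.46). Gsta4 at 170 days was at 185 and 133 against 78.2 and 202, the R&Zflox livers enclosing both R&Zdel livers. Called members were Gstm3 and Gstm2 at both times, beside 5.53% of genes at 50 days and 0.625% at 170 days in either direction. Groups did not overlap with R&Zdel higher for 7 and 6 members (41.4% and 21.9% of genes) and with R&Zdel lower for 2 and 1 (34.3% and 15.7%). At 50 days the lone R&Zflox library was assumed to vary like the others, and without the first R&Zdel library neither gene was called. The cholangiocyte marker sum at 50 days was at 648 to 1017 CPM in R&Zdel against 113 in R&Zflox and that of stellate cell markers at 361 to 478 against 243, and their part in the values was not tested. At 170 days the call of Gstm3 was lost without either R&Zdel library, and without the second R&Zflox library 5 members were called, Gstm1, Gstm4 and Gstm6 being added.

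**Figure D4:**
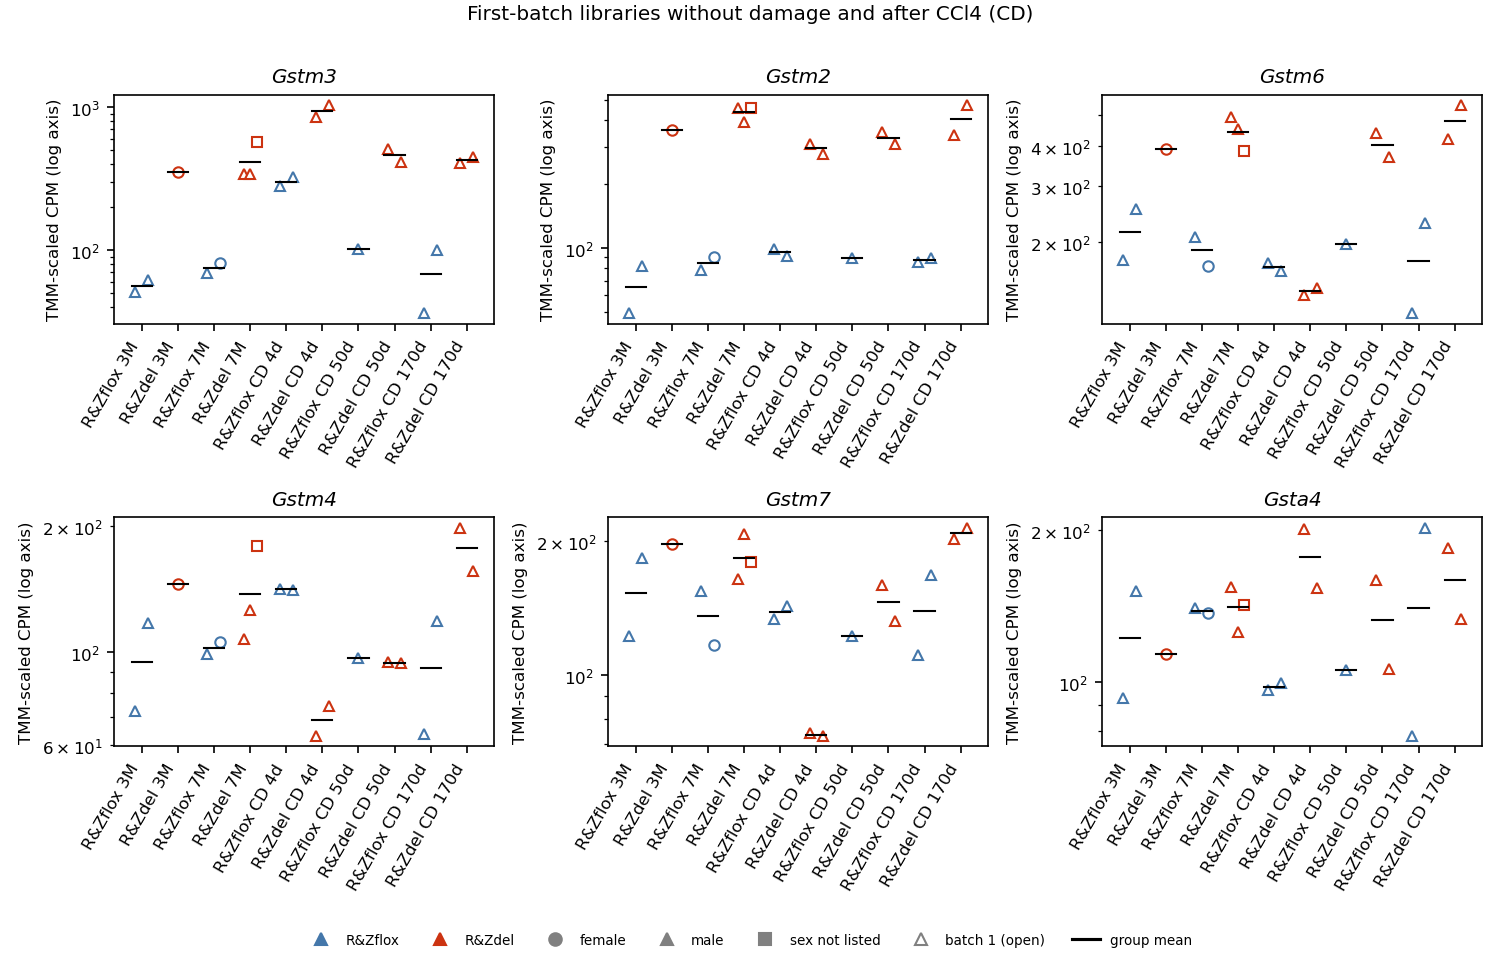
TMM-scaled CPM (log axis) of Gstm3, Gstm2, Gstm6, Gstm4, Gstm7 and Gsta4 in each first-batch library, undamaged and at 4, 50 and 170 days after CCl4, by genotype, with lines for group means. At 4 days Gstm3 and Gstm2 are higher in R&Zdel while Gstm4 (63.2 and 74.7 against 142 and 141) and Gstm7 are lower, and at 170 days Gstm4 is higher in R&Zdel.

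**Figure D5:**
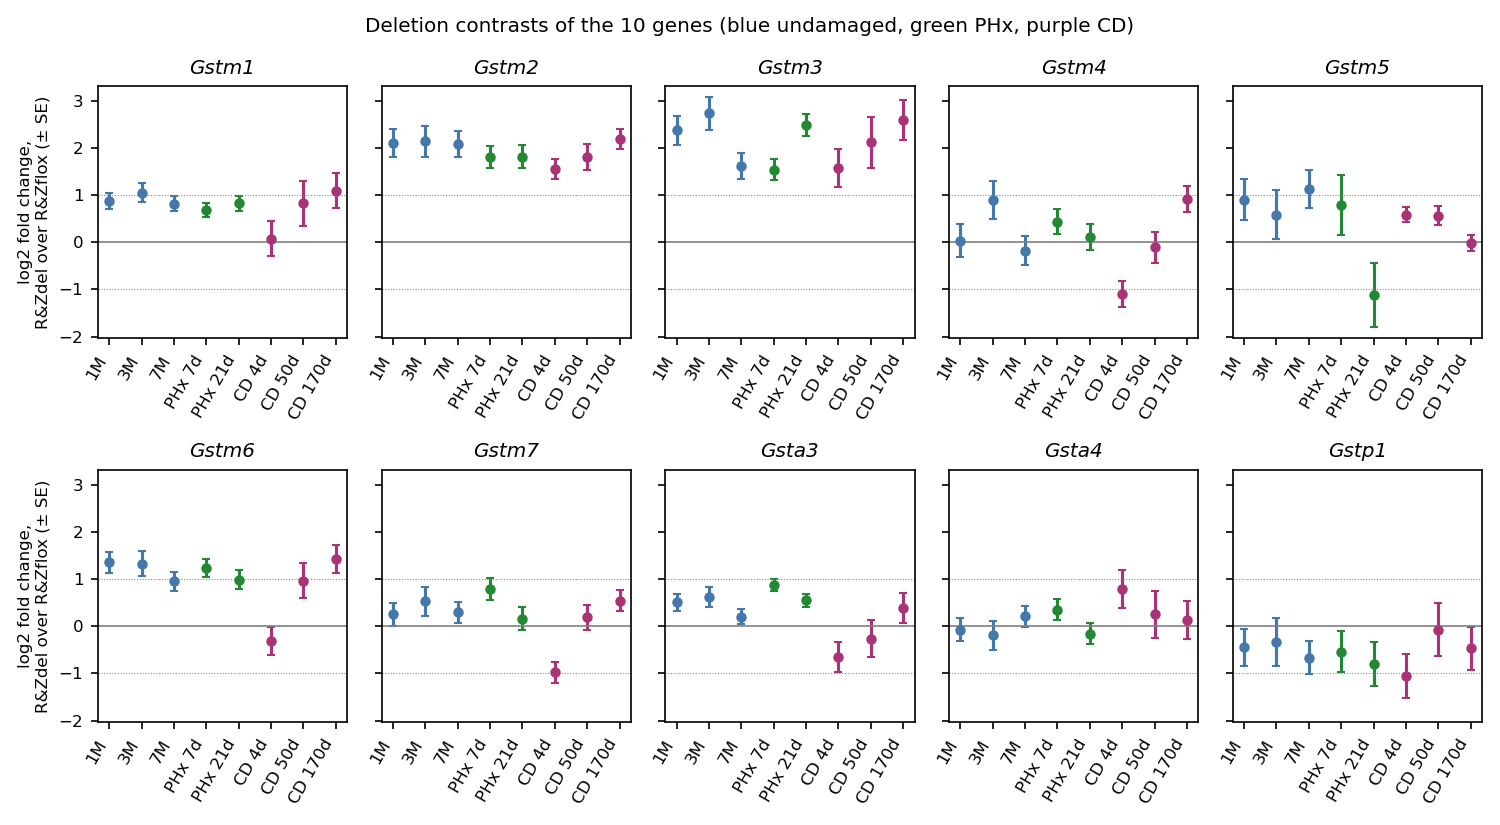
Log2 fold change, R&Zdel minus R&Zflox, with its SE for the 10 genes in 8 contrasts, blue for undamaged, green for hepatectomy and purple for CCl4, with dotted lines at 2-fold. Gstm2 and Gstm3 lie between 1.54 and 2.73 in all 8, whereas Gstm1, Gstm6, Gstm4, Gstm7 and Gsta3 fall toward or below 0 at 4 days after CCl4.

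The response to damage was also described within each genotype, against undamaged livers of the same batch. The study places 4 days after CCl4 nearer to 1 month than to 3 months after recombination. The first batch holds no 1-month livers, so the 4-day contrast is not matched in time. In R&Zflox livers 4 days after CCl4 against 3 months, Gstm3 was higher by 2.38 ± 0.39 on the log2 scale (5.19-fold), at 279 and 325 CPM against 50.8 and 62.0 in the undamaged first-batch livers. It was the only member called, beside 2.99% of 12608 genes in either direction. Gstp1 (0.63 ± 0.53), Gstm4 (0.53 ± 0.30), Gstm2 (0.49 ± 0.26) and Gsta4 (−0.37 ± 0.41) moved less, and the median of the 10 was 0.42 against 0.00 for all genes. The Gstm3 values of R&Zdel and R&Zflox livers at 4 days were thus both above their undamaged levels. An R&Zdel contrast at 4 days was not made, as the first batch holds 1 undamaged R&Zdel liver at 3 months.

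At 170 days against 7 months no member was called in R&Zflox or R&Zdel, with 0% of genes called in either. By edgeR 697 and 856 of 12608 genes had an unadjusted p under 0.05 in these contrasts, and DESeq2 called 44 and 93 genes and 0 members. After hepatectomy no member was called against 1 month in any of the 4 contrasts by edgeR or DESeq2, with 0.0235% and 0.0157% of genes called at 7 days in R&Zflox and R&Zdel and 0% at 21 days, where 885 and 627 of 12773 genes had an unadjusted p under 0.05. At 7 days Gstm3 had a value of 0.70 ± 0.22 and Gsta3 of −0.48 ± 0.14 in R&Zflox, and Gsta4 of 0.60 ± 0.22 in R&Zdel. At 21 days the low-count Gstm5 was at 0.97 ± 0.65 in R&Zflox and at −1.07 ± 0.61 in R&Zdel. The contrasts of genotype and of damage share libraries and are not independent.

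The rest of the glutathione pathway was tested from lists, by the same fits. Of 16 other glutathione transferases 13 were measurable in undamaged liver, and none passed an adjusted p under 0.1 and over 2-fold by edgeR's quasi-likelihood test at 1, 3 or 7 months, with 1, 1 and 3 of them at an unadjusted p under 0.05 and 0, 0 and 1 called by DESeq2. None of 12 was called after hepatectomy by the unadjusted rule (1 at 7 days and 0 at 21 days under p 0.05, and 0 by DESeq2). At 4 days after CCl4, where 15% of all genes were called, Mgst3, a microsomal transferase, was higher in R&Zdel (1.23 ± 0.18, adjusted p = 0.0044) and Gsto1, of the omega class, was lower (−1.11 ± 0.18, adjusted p = 0.0059). In R&Zflox livers at 4 days Gstt1, of the theta class, was lower than in undamaged liver (−1.21 ± 0.27, adjusted p = 0.047). The median log2 fold change of the other transferases at 1 month was −0.06, beside 0.69 for the 10 members, and no test was made of that difference.

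Of 14 measured genes that make and recycle glutathione, none was called at 1, 3 or 7 months by edgeR (3, 1 and 3 under an unadjusted p of 0.05, none called by DESeq2). At 4 days after CCl4, 5 were lower in R&Zdel and 1 higher, where 4.91% and 10% of all genes were called lower and higher. The lower ones included Cbs and Cth of the transsulfuration route to cysteine (−1.61 ± 0.28, adjusted p = 0.0074, and −1.09 ± 0.33, adjusted p = 0.049) and Chac1, which degrades glutathione (−1.66 ± 0.60, adjusted p = 0.084). Ggct, another gene of the list, was higher (1.18 ± 0.25, adjusted p = 0.014). Some genes of this list were also called lower at 50 days, where R&Zflox is a single library. At 170 days none was called by edgeR and 1 by DESeq2. By the unadjusted hepatectomy rule 1 gene, the dipeptidase Dpep1, was called lower at 7 days (−5.45 ± 2.37) and 21 days (−2.005 ± 0.77), with adjusted p = 0.82 and 0.51.

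Among 6 pumps that export conjugates, none was called in undamaged liver by edgeR (2, 0 and 0 under an unadjusted p of 0.05 at 1, 3 and 7 months, none by DESeq2), and Abcc4 was higher in R&Zdel 4 days after CCl4 (2.98 ± 0.43, adjusted p = 0.0036). Of 12 regulators of transferase genes and their classic targets, Cyp1a2, a target of the aryl hydrocarbon receptor and a pericentral gene, was higher in R&Zdel at 1 month (1.25 ± 0.19, adjusted p = 0.00087) and 7 days after hepatectomy (1.59 ± 0.24, adjusted p = 0.0031). There 0.436% and 0.274% of all genes passed an adjusted p under 0.1 and over 2-fold. None of the 12 was called at 3 months, 7 months or 170 days after CCl4 by edgeR or DESeq2. By edgeR 3, 3 and 2 of them had an unadjusted p under 0.05. At 21 days after hepatectomy 1 of the 12 was called higher by the unadjusted rule and 0 by the adjusted one. Of all genes, 6.55% and 0.329% were called in either direction. At 4 days after CCl4 Nqo1, a classic target of the oxidative stress factor NRF2, was higher (2.51 ± 0.21, adjusted p = 0.0008), and so was the xenobiotic receptor Nr1i3 (1.65 ± 0.31, adjusted p = 0.0097), which had fallen in R&Zflox livers at that time against undamaged ones (−2.80 ± 0.32, adjusted p = 0.00096). Nqo1 and Abcc4 were thus higher in the livers that also had the high cholangiocyte marker sums, whose part in these values was not tested.

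Zonation references were tested beside the mu genes. At 1 month the pericentral glutamine synthetase Glul was higher in R&Zdel by 2.32 ± 0.36 on the log2 scale (adjusted p = 0.0011) and Cyp2e1 by 1.05 ± 0.17 (adjusted p = 0.0015). The periportal genes Cyp2f2 (−3.67 ± 0.40, adjusted p = 4.0e-05), Hal (−3.57 ± 0.41, adjusted p = 5.1e-05) and Sds (−3.14 ± 0.50, adjusted p = 0.0014) were lower by edgeR's quasi-likelihood test. Oat, Lgr5 and Axin2 were not called there, beside 0.436% of all genes called. Of the 8 references, 2 were called higher and 2 lower at 3 months (0.226% of genes), and 2 and 3 at 7 months (0.451%). After CCl4 it was 2 and 3 at 4 days (15%) and 2 and 0 at 170 days (0.625%). At 50 days, with a single R&Zflox library, their median log2 fold change was 0.03, with 4 above 0. In R&Zflox livers 4 days after CCl4, where Gstm3 was higher, Cyp2e1 was lower than in undamaged liver by the same test (−2.12 ± 0.30, adjusted p = 0.0043). The pericentral Oat was lower too (−4.29 ± 0.46, adjusted p = 0.00083). These were the only 2 called of the 8 references, of which 3 had values above 0 (median −0.14). Glul was among those not called there.

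The genes most like 3 of the members were ranked by Pearson's r of log2 CPM over the 18 undamaged libraries of the second batch, among 12443 genes, as a description. These libraries share genotypes, sexes and batch, so genes that differ by genotype or sex rank high together. Gstm1 was closest to Gulo (r = 0.94), the vitamin C synthesis enzyme, and Slc1a2 (0.93), Prodh (0.90) and Glul (0.90) were also among the closest. Among the genes closest to Gstm3 were Gulo (0.88), Ifi27 (0.86), Ccdc85b (0.84) and Glul (0.83). Gstp1 was closest to Mup7 (0.90), Gstp-ps (0.90), Mup21 (0.90), Alas2 (0.89) and Eif2s3y (0.88). Of these, Mup7 and Mup21 are major urinary proteins, known for higher levels in males, and Eif2s3y is on the Y chromosome. Gstp-ps is a pseudogene of the pi class, and its sharing of reads with Gstp1 was not measured.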

How the data were processed

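Per the labels and the study's methods, total RNA of whole liver was made into Smart-Seq2 libraries, sequenced as single reads, and trimmed and aligned to mm10 with STAR 2.5.0a (the submitters' processing notes). The deposited files hold raw counts per gene, which the authors made with featureCounts (1.5.0-p1 and 1.5.0-p3 in those notes), as 1 table for the second batch and 1 per library for the first. Here the 34490 symbols shared by both batches were used. Levels are CPM scaled by TMM factors. Contrasts were fitted across all genes with edgeR 4.0.16 (quasi-likelihood, limma 3.58.1, R 4.3.3, prior count of 3) with Benjamini-Hochberg adjustment, on genes above 1 CPM in at least 3 libraries (at least 1 CPM in 6 for CCl4). Sex and batch were covariates for undamaged livers, sex for hepatectomy, none for CCl4. Alternatives, DESeq2 1.42.0 among them, are given in the closing section. The members and gene lists were chosen with earlier results of these data known. Named genes were the 10 members, the targeted genes, up to 4 called genes per list and direction, and the 5 genes most like Gstm1, Gstm3 and Gstp1, of which 1 gene is not reported here. Fits were tested on simulated data. Of 55 samples listed, 2 had no counts, 4 with contradictory labels were not grouped, 3 whose titles name another time or condition were grouped by their other labels, and 1 R&Zdel 7-month library of unlisted sex was left out of the fits. The labels give the libraries of a group as separate samples, no pair of libraries was identical (highest correlation 0.995), and replicate numbers did not pair the samples. Depth sets the counting error, so low genes such as Gstm5 are the least precise.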

Additional observations from a re-analysis of the deposited data

Results flagged for a closer look

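Each of the 10 genes was checked in each group of 4 to 10 libraries, 50 checks in all. In 4 of them a library lay far from the rest by Dixon's criterion, which chance alone meets in about 1 check in 20. The checks share libraries and are not independent. In R&Zdel livers at 7 months, Gstm2 was at 158 TMM-scaled CPM in the fourth replicate (second batch) against 393 to 456 in the other 5, and Gstm5 at 69.3 in the fifth against 13.6 to 33.8. In R&Zflox livers at 7 months, Gstm2 was at 131 in the second replicate (second batch) against 76.4 to 90.4, and Gsta3 at 1831 in the first (first batch) against 1209 to 1298. Without the R&Zdel library low in Gstm2, 204 genes were called at 7 months in place of 58, Gstm6 among them.

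At 1 month Gstm4 was higher in R&Zdel females and lower in R&Zdel males than in their R&Zflox counterparts, a difference of the contrasts of 1.03 on the log2 scale that edgeR's quasi-likelihood test did not call (adjusted p = 0.61).

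The 4 libraries outside all groups were set beside the 9 R&Zflox libraries of the first batch, whose highest values were 2500 CPM for Gstm1, 98.8 for Gstm2, 325 for Gstm3, 142 for Gstm4, 35.7 for Gstm5, 255 for Gstm6 and 183 for Gstm7. A library labelled wild type with chronic damage, whose title names another condition, was above them with Gstm1 at 3793, Gstm2 at 426, Gstm3 at 381, Gstm5 at 40.9 and Gstm6 at 352. One labelled wild type and undamaged, whose title names a damaged group, was above them with Gstm1 at 3790, Gstm2 at 527, Gstm3 at 582, Gstm4 at 196, Gstm6 at 439 and Gstm7 at 192. The other 2, labelled as mutants, exceeded them in Gstm2 alone, at 125 and 155. No group was drawn from these values.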

How the results depend on the processing

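Over 204 results, 2616 values were computed under alternatives. Of these 2389 stayed within the spread or the 1.5-fold limit, 227 did not, and no called member changed sign. Counts of called members changed beyond 1.5 times as follows, the values being those reported in 3, 4, 2, 3, 2, 3, 2 and 2 members at 1, 3 and 7 months, 7 and 21 days after hepatectomy, and 4, 50 and 170 days after CCl4. With males alone 1 member was called at 1 month and 2 at 3 months. The second batch alone gave 2 at 3 months and 1 at 7 months, the first batch alone 0 at both, and including the library of unlisted sex with no sex term gave 2 at 3 months, as did leaving out the 2 females of the first batch, whose titles name other groups. No filter on low counts and the DESeq2 Wald test each gave 5 at 4 days and 4 at 170 days after CCl4. The replicate block gave 0 at 50 days and 1 at 170 days and changed no other count of members beyond 1.5 times; the numbers did not pair the samples (same-numbered correlations −0.508 to 0.402), and crossing the numbers at 170 days gave 154 called genes in place of 71. Leaving out 1 library gave 3 to 3, 2 to 4 and 2 to 3 members at 1, 3 and 7 months, 3 to 4 and 2 to 4 after hepatectomy, and 2 to 2, 0 to 2 and 1 to 5 after CCl4; Gstp1 alone was called for sex and Gstm3 alone for CCl4 in R&Zflox each time.

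Counts of all called genes moved more. At 1 month 56 became 121 with no filter, 302 with DESeq2, 188 with edgeR's likelihood ratio test and 14 with males alone, and at 3 months 29 became 73, 134, 60 and 12. At 7 months 58 became 95, 92, 88 and 38, and 204 without the fourth R&Zdel library. At 4 days 1699 became 2931 with library totals and 2928 with no filter, at 50 days 628 became 0 with the replicate block and 1660 with no filter, and at 170 days 71 became 7 and 595. Scaling by library totals moved the median of all genes by over 0.1 at 1 month (0.17), at 21 days (0.11) and at 4, 50 and 170 days after CCl4 (0.51, 0.25 and 0.21). Gstp1 at 3 months, at −0.33, went to 1.24 in the first batch alone and to −1.65 with the library of unlisted sex and no sex term, and Gsta4 at 170 days ranged from −0.40 to 1.01. The causes were not tested. Groups of 1 or 2 libraries and the low counts of Gstm5 limit the precision.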
